A study of Mus musculus with 2 samples.

Results

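The common gamma chain cytokine receptors are the receptor chains through which interleukins 2, 4, 7, 9, 15 and 21 reach T cells. They were taken here as 8 genes, Il2ra, Il2rb, Il2rg, Il7r, Il15ra, Il4ra, Il21r and Il9r, each read from the probe sets whose platform symbol is that gene alone. Of these 8 genes, 7 had a value, with 1 probe set each, among 22180 genes on the arrays that were named by a single symbol. Il2rg, the common gamma chain itself, was not analysed here because no probe set given its symbol was found in the platform annotation used.

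The values came from 2 arrays of mouse CD8+ T cells, 1 for a culture with bezafibrate and 1 for a culture with dimethyl sulfoxide (DMSO), the solvent in which the drug was dissolved. Bezafibrate is a fibrate drug that activates the peroxisome proliferator-activated receptors, and it was kept at 30 µM for the whole culture. Cells of both cultures began as naive CD8+ T cells, were activated with beads carrying antibodies to CD3 and CD28, received recombinant human interleukin-2 at 100 U/mL, and were expanded to day 13. The labels give neither the mouse strain or age nor the number of animals, and name 1 array per treatment, so every difference below compares 2 arrays and has no replicate error and no p-value.

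Each receptor of the family pairs the common gamma chain with a chain of its own, and the interleukin-2 and interleukin-15 receptors also share the beta chain. The kinase JAK1 binds the private or beta chains and JAK3 binds the gamma chain, and the pair activates STAT5, STAT3 or STAT6 according to the cytokine. In CD8+ T cells interleukin-2 drives expansion and effector differentiation and is known to raise Il2ra and to lower Il7r, whereas interleukins 7 and 15 sustain naive and memory cells.

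Signals are log2 values. The floor was the median signal of all named genes, 4.85 with bezafibrate and 4.88 with DMSO, and a gene is called above it if the higher of its signals passed the median of the same array, as for 51.6% of genes. As background, 1390 receptor genes of smell and pheromone sensing (Olfr, Vmn1r and Vmn2r), taken to be silent in T cells, had 95th percentiles of 4.68 with bezafibrate and 4.71 with DMSO, and a signal under these limits is called within background. Probe sets differ in how well they bind their target, so the signal of one receptor is not ranked against that of another. The percentiles below place a signal among all named genes of its own array and are not an order of mRNA amounts.

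The CD8 T cell label was borne by its markers. Of these, Cd8a and Cd8b1 encode CD8 itself, and the rest are shared with other T cells. All 8 CD8 T cell markers (Cd3d, Cd3e, Cd3g, Cd8a, Cd8b1, Cd2, Cd5 and Thy1) were above the floor, at log2 signals from 7.50 to 11.05 with bezafibrate and from 7.68 to 11.10 with DMSO. Of the measured markers of other cells, 1 of 4 was above the floor for CD4 and regulatory T cells (Foxp3), 1 of 4 for B cells (Cd79b), 1 of 4 for natural killer cells (Eomes, which CD8+ T cells also use), 0 of 5 for macrophages and monocytes, 0 of 5 for dendritic cells and 1 of 4 for mast cells and basophils (Kit). All 8 CD8 T cell markers were lower on the bezafibrate array, with log2 ratios from −0.30 to −0.06 and a median of −0.16. Of all genes above the floor 49.6% were lower, and 0 of the 8 markers were at least 1.5-fold lower. Whether the markers depart from all genes was not tested. Among markers of other cells, Cd79b read 4.85 with bezafibrate and 5.41 with DMSO, a ratio of −0.55 that is larger in size than that of any CD8 T cell marker. Ikzf2, a marker of regulatory T cells, read 4.70 with bezafibrate, just above the background limit, and 4.20 with DMSO, within background. Cd4 was within background on both arrays, at 4.29 with bezafibrate and 3.88 with DMSO. The macrophage marker Csf1r, below the floor, read 4.80 with bezafibrate and 4.73 with DMSO, slightly above the background limits. The dendritic cell marker Zbtb46, also below the floor, read 4.65 with bezafibrate, within background, and 4.85 with DMSO, slightly above the limit. The part of these markers in the receptor values below was not tested.

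The proximal promoters of 3 receptor genes are shown as sequence because their signals mark the range found here: Il2ra was far above background on both arrays, Il21r had the largest difference of the receptors above the floor, and Il7r was within background. Each is the 250 bases before the annotated start, 5′ to 3′ on the gene's strand, from RefSeq on GRCm38.p6. Il2ra lies at chr2:11642542-11642791 on the plus strand, Il21r at chr7:125603179-125603428 on the plus strand and Il7r at chr15:9529877-9530126 on the minus strand. Capitals mark matches to TTCNNNGAA, the paired half-sites that STAT proteins bind, and to GGAAGT, a core bound by ETS factors, both sought on both strands.
Il2ra: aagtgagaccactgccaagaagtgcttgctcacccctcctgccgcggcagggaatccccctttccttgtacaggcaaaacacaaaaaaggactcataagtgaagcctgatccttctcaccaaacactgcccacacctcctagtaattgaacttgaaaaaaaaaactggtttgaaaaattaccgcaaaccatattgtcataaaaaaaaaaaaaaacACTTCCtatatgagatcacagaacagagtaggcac
Il21r: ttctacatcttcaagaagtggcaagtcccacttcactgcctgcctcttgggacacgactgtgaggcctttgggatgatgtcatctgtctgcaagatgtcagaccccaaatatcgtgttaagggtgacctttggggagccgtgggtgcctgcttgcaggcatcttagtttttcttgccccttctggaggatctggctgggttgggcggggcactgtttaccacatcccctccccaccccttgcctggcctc
Il7r: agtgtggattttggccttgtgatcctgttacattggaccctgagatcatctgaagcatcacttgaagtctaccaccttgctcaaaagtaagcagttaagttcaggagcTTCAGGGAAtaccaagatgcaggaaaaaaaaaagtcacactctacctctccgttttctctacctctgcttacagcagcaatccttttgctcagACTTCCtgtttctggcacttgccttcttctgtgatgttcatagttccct
The Il2ra window held 1 match to GGAAGT, 35 to 30 bases before the start and on the opposite strand. The Il7r window held 1 match to GGAAGT, 49 to 44 bases before the start and also on the opposite strand, and 1 match to TTCNNNGAA, 142 to 134 bases before it. None of these matches overlapped, and the Il21r window held neither motif. Among 32851 promoters of the same length, 19.7% held GGAAGT and 7.02% held TTCNNNGAA. The windows of Il15ra, Il4ra, Il9r and Il2rg held no match. Il2rb was not searched because no window for it was found in the sequences used. These matches are letters in a window and were not set against binding data.

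No receptor differed strongly between the arrays. Of the 7 receptor genes with a value, 6 were above the floor, and 0 of these 6 differed by 1.5-fold, where 1.19% of all 11446 genes above the floor did. Among the 6, 3 were higher with bezafibrate (Il15ra, Il2ra and Il4ra) and 3 lower (Il21r, Il9r and Il2rb, the last of which turned slightly positive after quantile normalization), and over all genes above the floor 48.4% were higher and 49.6% lower. Il9r passed the floor on the DMSO array alone, where it was higher, so its being counted as lower follows in part from the filter, and the other 5 passed on both arrays. The median log2 ratio of the 6 was −0.02, bezafibrate over DMSO, beside 0 for all genes above the floor. Their greatest difference was 1.21-fold, in Il21r. With no replicates, the spread of genes of like level served as a yardstick: for each receptor the central 95% of ratios was taken over the 200 genes nearest in mean signal. That range comes from other genes on the same arrays, so it is not a replicate error, and by definition it holds most genes. The ratios of all 6 receptors above the floor lay inside that range. In bulk RNA of this kind, fewer cells that carry a receptor and less of its RNA per cell cannot be told apart.

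**Figure D1:**
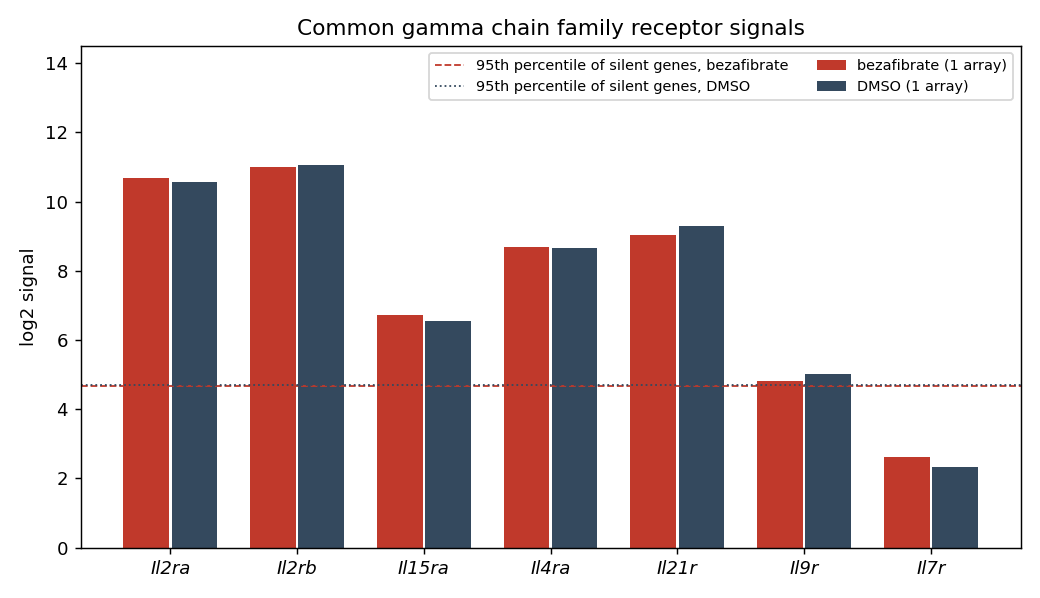
Log2 signal (vertical axis, from 0) of the 7 measured receptor genes on the bezafibrate array (red, left bar) and the DMSO array (dark, right bar), 1 array each, with lines at the 95th percentile of silent genes on each array. The paired bars stand close together for every gene, Il9r reaches just above the lines and Il7r stays below them.

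Il2ra encodes CD25, the alpha chain that turns the intermediate-affinity interleukin-2 receptor into the high-affinity one. Its log2 signal was 10.69 with bezafibrate and 10.57 with DMSO, at percentiles 99.5 and 99.3 of named genes. The bezafibrate array was thus 1.09-fold higher, a log2 ratio of 0.12, and 95% of genes of like level had ratios between −0.36 and 0.29. Il2ra was therefore among the brightest signals in both cultures, and 45.5% of genes of like level differed at least as much.

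Il2rb encodes CD122, the beta chain that signals for both interleukin-2 and interleukin-15. Its log2 signal was 10.99 with bezafibrate and 11.06 with DMSO, at percentiles 99.6 and 99.7. The log2 ratio was −0.07, inside the range of −0.30 to 0.28 for genes of like level. This is the only receptor whose ratio changed sign with the processing, to 0.02 after quantile normalization, so its direction is not settled.

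Il15ra encodes the alpha chain that binds interleukin-15 with high affinity and can present it to neighbouring cells. The bezafibrate array read 6.72 and the DMSO array 6.55 on the log2 scale, at percentiles 74.0 and 72.1. It was 1.12-fold higher with bezafibrate, a log2 ratio of 0.17, within the range of −0.42 to 0.43. Il2ra and Il15ra encode related alpha chains and are neighbours on chromosome 2, with 0 protein-coding genes starting between them in the RefSeq annotation. Both signals were slightly higher on the bezafibrate array.

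Il4ra encodes the private chain of the interleukin-4 receptor, which signals through STAT6. Its log2 signal was 8.70 with bezafibrate and 8.66 with DMSO, at percentiles 93.7 and 93.5. The log2 ratio of 0.03 was the smallest in size of the 6 above the floor, and 85.0% of genes of like level differed at least as much.

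Il21r encodes the private chain of the interleukin-21 receptor, which signals mainly through STAT3. A log2 signal of 9.03 was measured with bezafibrate and of 9.30 with DMSO, at percentiles 95.6 and 96.9. It was 1.21-fold lower with bezafibrate, a log2 ratio of −0.27. This was the receptor ratio nearest to the edge of its range, −0.32 to 0.32. Of genes of like level, 12% differed at least as much in either direction and 5.50% had a lower ratio. Il4ra and Il21r are neighbours on chromosome 7, again with 0 protein-coding genes starting between them, and their ratios were 0.03 and −0.27.

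Il9r encodes the private chain of the interleukin-9 receptor, best known from mast cells and helper T cell subsets. The log2 signals were 4.83 with bezafibrate and 5.01 with DMSO, only 0.15 and 0.30 above the background limits of these arrays, and on the bezafibrate array it was below the floor of 4.85. The log2 ratio of −0.18 lay within the range of −0.45 to 0.44 for genes of like level. Among the mast cell markers, Kit was at 5.23 with bezafibrate and 5.27 with DMSO, whereas Cpa3, Fcer1a and Mcpt4 were within background on both arrays.

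Il7r encodes CD127, the private chain of the interleukin-7 receptor and a marker of naive and memory T cells. Its log2 signal was 2.62 with bezafibrate and 2.32 with DMSO, at percentiles 8.76 and 5.88 of named genes. Both signals were within background, and 54.2% of the silent genes read lower than Il7r on the bezafibrate array and 42.2% on the DMSO array. Its single probe set therefore gave a signal in the middle of the silent genes on both arrays, and no fold is given. Il7r was the only one of the 7 measured receptors not above the floor, and with 1 probe set a low transcript level and a poorly responding probe set cannot be told apart.

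**Figure D2:**
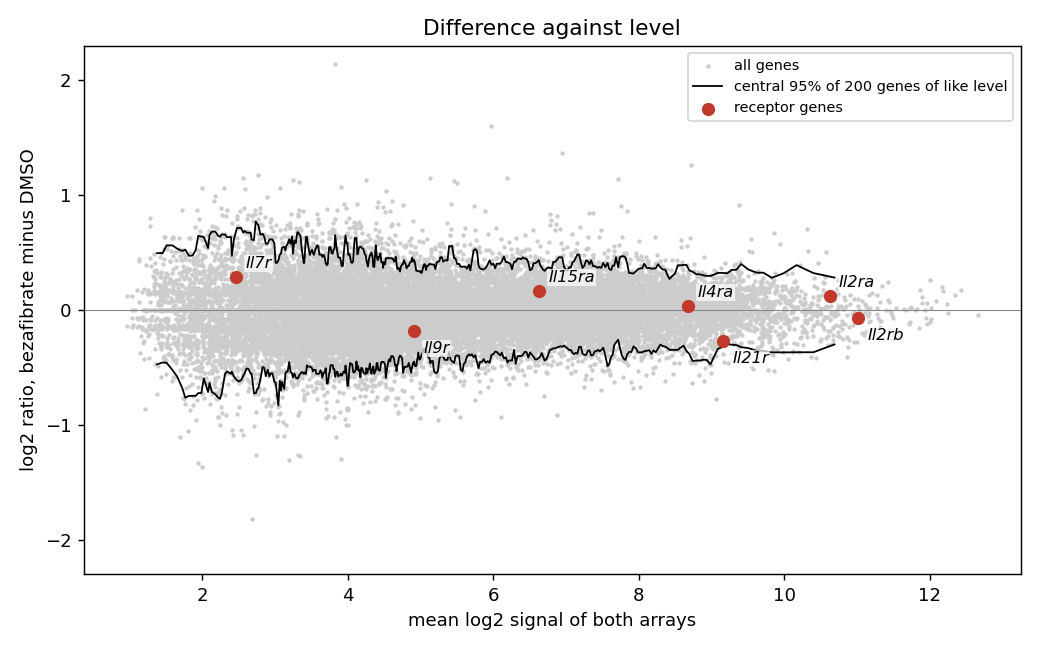
Log2 ratio of bezafibrate over DMSO (vertical axis) against the mean log2 signal of both arrays (horizontal axis) for all 22180 named genes (grey) and the 7 receptor genes (red), with black lines at the central 95% of windows of 200 genes. The 6 receptors above the floor lie between the edges of their own ranges, with Il21r closest to the lower one at −0.27, and Il7r is drawn at signals within background.

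None of the family's cytokine genes was above background in the cultured cells. All 6 cytokine genes, Il2, Il4, Il7, Il9, Il15 and Il21, were within background on both arrays, with log2 signals from 2.44 to 3.52 with bezafibrate and from 2.75 to 3.63 with DMSO. No fold is given for them. Of the chains that join the family in alternative receptors, Crlf2, which pairs with the interleukin-7 receptor alpha chain to bind thymic stromal lymphopoietin, had signals of 7.87 with bezafibrate and 8.08 with DMSO, a log2 ratio of −0.21. Il13ra1, which pairs with the interleukin-4 receptor alpha chain, and Il13ra2, a decoy receptor for interleukin-13, were within background on both arrays.

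The measured kinases and transcription factors downstream of the receptors were all well above background and differed little. Of 10 Janus kinase and STAT genes listed, 9 had a value and all 9 were above the floor, with 8 higher with bezafibrate, 0 lower and 1 equal. Their median log2 ratio was 0.06 and their largest was 0.13, so 0 of 9 reached 1.5-fold. Over all genes above the floor, 48.4% were higher and 49.6% lower. Whether this list departs from those shares was not tested. Jak1 had signals of 10.88 with bezafibrate and 10.80 with DMSO, a ratio of 0.09. Stat5b, one of the STAT5 genes, had 7.22 with bezafibrate and 7.16 with DMSO, and Stat5a was listed at exactly 6.89 on both arrays. Stat3, with signals of 9.34 with bezafibrate and 9.21 with DMSO, and Jak1 had the highest ratios of the list, whereas Stat5a and Tyk2, at 0 and 0.01, had the lowest. Stat6 had a ratio of 0.07. Jak3, named only together with other genes, was not analysed here.

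Adaptors and kinases that link the receptors to the RAS, PI3K and mTOR pathways were also close to 0. Of 13 such genes, 11 had a value and 10 were above the floor, with 8 higher and 2 lower, a median of 0.05 and 0 at 1.5-fold. Irs2, an adaptor used by the interleukin-4 receptor, had the highest ratio, 0.32, with signals of 5.06 with bezafibrate and 4.74 with DMSO, and it passed the floor only on the bezafibrate array, where it was higher. Mtor followed at 0.22. Gab2 and Grb2, adaptors downstream of the beta chain, had the lowest ratios, −0.13 and −0.07.

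Genes that STAT5 is known to induce had no common direction. All 17 on the list were above the floor, with 7 higher, 9 lower and 1 equal, a median log2 ratio of −0.01 and 0 at 1.5-fold; Il2ra is 1 of the 17. Cish, a feedback inhibitor of the interleukin-2 receptor, had the highest ratio, 0.25, with signals of 9.73 with bezafibrate and 9.48 with DMSO. Its second probe set, at 8.29 with bezafibrate and 8.63 with DMSO, had a ratio of −0.34, so the probe sets of Cish disagree on the direction. Ccnd2, a cyclin of the G1 phase, followed at 0.21. Socs3 and Socs1, inhibitors of Janus kinases, had the lowest ratios, both at −0.30. Socs2 read −0.17 on each of its probe sets, Myc −0.14 and Pim1 0.03. Bcl2, the survival factor maintained by interleukins 7 and 15, read 0.13 on its brighter probe set and −0.18 on the dimmer.

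The list of feedback inhibitors and phosphatases, which shares Cish, Socs1, Socs2 and Socs3 with the previous one, had 14 of 15 genes above the floor, with 7 higher and 7 lower, a median of 0.02 and 0 at 1.5-fold. Its highest ratios were those of Cish and of Socs4, a less studied family member, at 0.22. Its lowest were those of Socs3 and Socs1.

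Genes linked to the control of Il7r were above the floor although Il7r was within background. Of 11, 10 had a value and all 10 were above the floor, with 5 higher and 5 lower, a median of −0.04 and 0 at 1.5-fold. Foxo1, an activator of Il7r and of genes of naive and memory cells, had signals of 8.76 with bezafibrate and 8.74 with DMSO for its brighter probe set, while the dimmer one read −0.30. Gfi1, a repressor of Il7r in CD8+ T cells, had 7.50 with bezafibrate and 7.75 with DMSO, a ratio of −0.24. Gabpa, the ETS family member that binds the Il7r promoter, had a ratio of 0.19, and Runx1, which led the list, 0.25. The lowest were S1pr1, the receptor that lets T cells leave lymphoid tissue, at −0.34, and Klf2, a transcription factor that maintains S1pr1, at −0.30. S1pr1 had signals of 7.92 with bezafibrate and 8.26 with DMSO, and Klf2 had 7.33 with bezafibrate and 7.62 with DMSO.

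Cytokine receptors outside the family that were above the floor had a median ratio near 0 as well, with single ratios from −0.25 to 0.64. Of 41 listed, 37 had a value and 21 were above the floor, with 13 higher, 5 lower and 3 equal, and a median log2 ratio of 0.02. Beside them, 48.4% of all genes above the floor were higher and 49.6% lower. Of these 21, 1 was at least 1.5-fold higher and 0 at least 1.5-fold lower, where 0.664% and 0.524% of all genes above the floor were. That gene was Il18rap, the accessory chain of the interleukin-18 receptor, with signals of 8.55 with bezafibrate and 7.91 with DMSO, and its partner Il18r1 had a ratio of 0.42. Csf2ra, at −0.25, and Il10rb, at −0.13, were the lowest. The greatest ratio among the common gamma chain receptors above the floor, 0.17 in Il15ra, was below both interleukin-18 receptor chains, and the difference between the families was not tested.

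**Figure D3:**
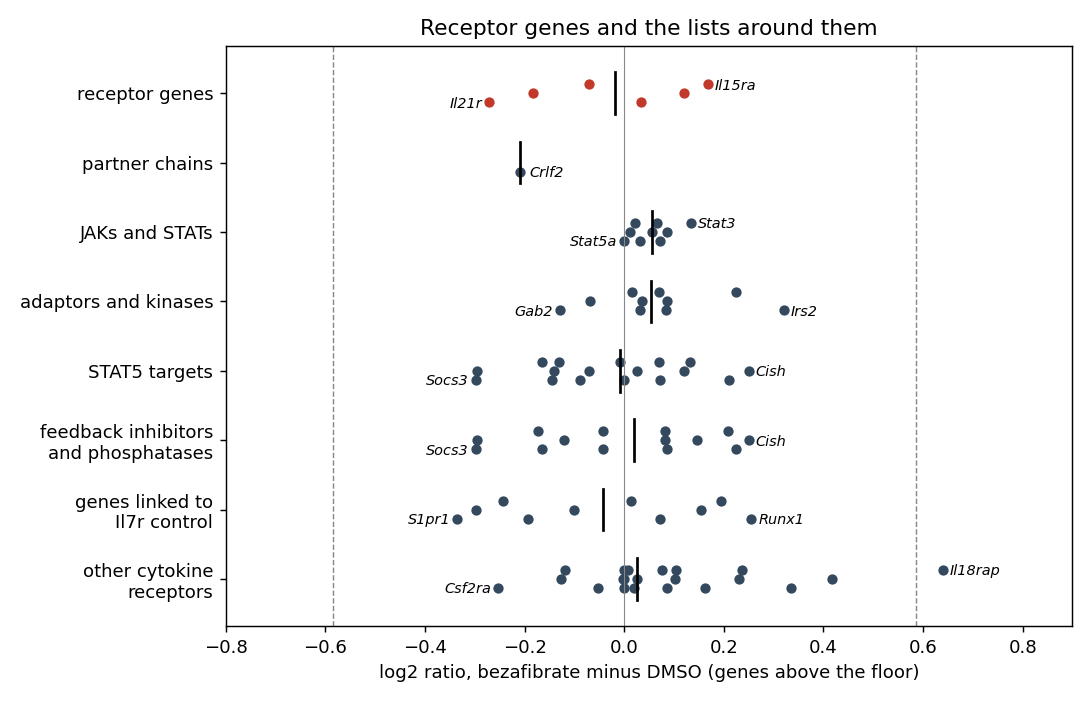
Log2 ratio of bezafibrate over DMSO (horizontal axis) for each gene above the floor in the receptor family (red) and in 7 lists around it (dark), with the median of each list as a black bar and dashed lines at 1.5-fold in each direction. Only Il18rap, at 0.64, lies past a dashed line, and the 6 receptor genes lie between −0.27 and 0.17.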

How the data were processed

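Total RNA of 2 cultures was made into cDNA with a whole-transcript amplification kit, biotinylated and measured on gene arrays, 1 array per culture, per the labels' protocols. The authors deposited log2 signals per probe set, and the submitters' processing notes name RMA and Affymetrix Expression Console. Neither their versions nor a genome build is given in the sources used. RMA equalises the signal distributions of arrays processed together and shrinks differences of dim genes. The log2 scale was read from the values, 0.79 to 12.64 with bezafibrate and 0.75 to 12.68 with DMSO. The number of arrays limits the precision.

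Of 41801 probe sets, 33793 had a value: 23521 named 1 gene, 1814 several and 8458 none. Single-gene probe sets alone were used, and where a gene had more than 1, that with the highest mean signal represented it. The log2 ratio is bezafibrate minus DMSO. The fold limit was 1.5, with a looser limit of 1.25 and a limit of 2 as alternatives. Named genes were the receptors, a fixed set of partners and, per list, the 2 highest and 2 lowest ratios above the floor. Receptors and lists were chosen with earlier results of these data known. Python 3.11.15, numpy 2.4.6, pandas 2.3.3 and statsmodels 0.14.6 were used. The range of like-level genes was tried on simulated data with the same noise at every level, whereas the spread on the arrays varied with level. The changes added there were larger than that of any receptor, so the trial does not show how the range performs on the receptors.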

Additional observations from a re-analysis of the deposited data

How the results depend on the processing

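No paired analysis was possible because each group had 1 array, and for the same reason no array could be left out. Over 6 alternatives (quantile normalization, a loess curve on level, housekeeping genes set to 0, averaged probe sets, the probe set of smallest ratio, and probe sets of several genes included), the log2 ratio ran from 0.10 to 0.16 for Il2ra, from 0.15 to 0.17 for Il15ra, from 0.01 to 0.03 for Il4ra, from −0.29 to −0.27 for Il21r and from −0.20 to −0.15 for Il9r. Il2rb ran from −0.09 to 0.02 and changed sign under quantile normalization alone; the cause was not tested. Each receptor had 1 probe set, so the alternatives on the choice of probe sets left every receptor ratio as deposited. The count of receptors at 1.5-fold was 0 under these 6 alternatives, with no floor and at a looser fold limit. It was also 0 at 2-fold and with a floor at percentile 75, which are stricter and could not raise it. The median ratio of the 6 receptors above the floor was −0.02 and their mean −0.03; with Il7r, which is within background, added, the median was 0.03 and the mean 0.01. In the background, 136 genes differed by 1.5-fold, against 561 with no floor, 46 with a floor at percentile 75, 1391 at the looser limit and 10 at 2-fold. A yardstick of 1000 genes of like level, added after seeing the data, also left 0 of the 6 receptors above the floor outside. Signals close to background, as for Il9r, limit what can be seen, and Il7r, within background, allows no ratio.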
